A study of Mus musculus with 50 samples.

Results

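The genes described here encode the subunits of the mitochondrial respiratory chain and of ATP synthase. They were chosen by a rule on symbols that uses no measured value, but with earlier results of these data known. Every non-control probe on the Agilent arrays was taken whose gene symbol begins with Nduf, Uqcr, Cox4, Cox5, Cox6, Cox7, Cox8 or Atp5. Probes of Sdha, Sdhb, Sdhc, Sdhd, Cyc1 and Cycs were taken too. This gave 111 probes of 86 genes, out of 41174 probes and 34537 genes in all, where a probe without a gene name stands as a gene of its own. All 111 probes were named through an accession that the files give for them, and none through its description. The reference table lists 98 such symbols, and 12 of them had no named probe, Ndufv2, Ndufs5, Ndufb6 and Ndufa11 among them. None of the 26 symbols listed for subunits encoded by the mitochondrial genome had a named probe, so every value below is of a nuclear gene.

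The samples were hippocampi of male mice, 5 wild-type (WT) animals of the strain C57/BL6j and 5 transgenic (TG) animals that overexpress DCLK-short on the same C57/BL6j background. The transgene, δC-DCLK-short, is a form of doublecortin-like kinase-1 whose kinase is constitutively active. Both hippocampi of each animal were taken after 7 days of individual housing. The age of the mice and the promoter of the transgene are not given in the sources used here. On 10 two-color Agilent arrays, amplified RNA of 1 WT and 1 TG mouse was hybridized together, with WT in Cy3 on arrays 1 to 5 and in Cy5 on arrays 6 to 10, so that each mouse was on 2 arrays.

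The respiratory chain passes electrons from NADH (complex I) or succinate (complex II) by way of complex III and cytochrome c to oxygen (complex IV), and the proton gradient that complexes I, III and IV build drives ATP synthase. Most of its subunits are encoded in the nucleus and imported. They fall into subunits that carry the redox centers or catalysis and many small accessory subunits around them. Neurons depend on this pathway for most of their ATP, and its nuclear genes are known targets of the transcription factors NRF1, GABPA and YY1.

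The promoters of the genes are shown first, since these genes are known for shared promoter motifs. Of the 86 genes, 71 had an entry in the RefSeq promoter table (GRCm38.p6, 250 bases before to 50 bases after the start). TGCGCA, the repeated unit of the NRF1 site, was found on either strand in 23.9% of them and in 8.79% of the 27025 genes with an entry. CCGGAAG, the core bound by ETS factors such as GABPA, was in 23.9% and in 9.93% of all genes. AAGATGG, the YY1 core, was in 15.5% and in 7.28% of all genes. The last 3 letters of CCGGAAG are the first 3 of AAGATGG, but no promoter of these genes held an overlap of both. Between the genes called below and those not called, the shares were 23.1% and 25% for TGCGCA, 28.2% and 18.8% for CCGGAAG, and 20.5% and 9.38% for AAGATGG. Of the 39 called genes with an entry, 9 held TGCGCA, 11 CCGGAAG and 8 AAGATGG. These counts are small, and no difference was tested. Promoters of 4 genes among those with the values that follow are printed as examples, 5′ to 3′ on the strand of the gene, up to the base before its start, with the motifs in capitals (CTTCCGG is CCGGAAG on the other strand). They are Atp5l (chr9:44920743-44920992, minus strand), Atp5j (chr16:84834977-84835226, minus strand), Cox6a1 (chr5:115348959-115349208, minus strand) and Uqcr11 (chr10:80406822-80407071, minus strand).
Atp5l: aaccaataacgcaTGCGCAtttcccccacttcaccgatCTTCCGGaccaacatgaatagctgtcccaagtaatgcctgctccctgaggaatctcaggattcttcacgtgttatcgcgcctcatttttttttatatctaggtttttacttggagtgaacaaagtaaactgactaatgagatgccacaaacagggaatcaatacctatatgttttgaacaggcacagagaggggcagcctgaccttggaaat
Atp5j: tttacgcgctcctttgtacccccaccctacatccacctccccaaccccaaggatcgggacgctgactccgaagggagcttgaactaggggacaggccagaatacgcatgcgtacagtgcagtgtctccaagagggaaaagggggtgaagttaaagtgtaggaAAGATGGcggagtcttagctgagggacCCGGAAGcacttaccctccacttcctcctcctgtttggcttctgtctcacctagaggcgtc
Cox6a1: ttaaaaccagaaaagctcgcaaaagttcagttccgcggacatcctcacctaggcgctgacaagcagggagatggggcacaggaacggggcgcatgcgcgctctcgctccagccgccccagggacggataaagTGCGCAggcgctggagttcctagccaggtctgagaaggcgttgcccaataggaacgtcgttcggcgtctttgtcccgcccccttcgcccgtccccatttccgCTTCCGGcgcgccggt
Uqcr11: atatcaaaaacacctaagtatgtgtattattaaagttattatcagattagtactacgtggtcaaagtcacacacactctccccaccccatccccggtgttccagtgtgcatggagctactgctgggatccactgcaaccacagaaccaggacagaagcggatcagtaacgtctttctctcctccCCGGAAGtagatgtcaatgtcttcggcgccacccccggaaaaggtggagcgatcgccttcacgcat

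Before the comparison, the labels have to be stated as in doubt. The log ratios of 10722 genes with a mean log2 signal over 7.5 were centered within a dye orientation and correlated between arrays. The 6 pairs of arrays that share a mouse by the labels alone had r of -0.50 to -0.03 (median -0.13). The 6 pairs that share a mouse only if arrays 1 to 5 are exchanged with arrays 6 to 10 had r of -0.25 to 0.60 (median 0.38), and the 4 pairs that share one either way had 0.26 to 0.79. The 9 pairs that share no mouse under either reading had r of -0.52 to 0.24 (median -0.27). Such an exchange would leave the size of every mean log ratio as it is and turn its sign. All directions are therefore given as labelled, and for the genes whose direction the study's text names they run the other way. Gabra2, a GABA-A receptor subunit, was at 1.26 ± 0.23 (SE, n = 10 arrays; limma, FDR 0.0198) and above 0 on all 10 arrays, and Plac9a was at -0.32 ± 0.06 (FDR 0.0176) and below 0 on all 10. The study's text names Gabra2 as down and Plac9 as up in the TG mice. The study reports these directions on every platform, its own Agilent values included, and by quantitative RT-PCR. For the genes of the respiratory chain its text gives no direction. Dclk1, the gene the transgene derives from, had a log2 TG over WT of -0.07 ± 0.03 (SE, n = 10 arrays; limma, FDR 0.273) as the mean of 4 probes, with array values from -0.26 to 0.05. Its probes were not matched to the DCLK-short transcript, so this value does not check the labels.

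Across the arrays 80.2 to 88.5% of spots were well above background. All 8 measured neuron markers were above background on all 10 arrays. Of the 86 genes, 83 were well above background in both channels on all 10 arrays, and none was saturated. Since each mouse is on 2 arrays, the 10 arrays hold 5 mice of each genotype.

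As labelled, 43 of the 86 genes (50%) passed an FDR of 0.1 on the 10 arrays (limma on log2 TG over WT), and all 43 were higher in the TG mice. Among all genes on the arrays, 8.15% passed, 4.04% higher and 4.11% lower, and among the genes other than the 86, 3.92% passed as higher. Of the 724 other genes that were brighter than the median of the 86, 28.7% passed in either direction and 17.4% as higher. The called genes had mean log2 ratios of 0.15 to 0.76, or folds of 1.11 to 1.70. The median over the 86 genes was 0.40, against 0.0033 over all other genes, and 12 of the 86 had a mean below 0. Without adjustment 63 had p under 0.05 (61 of them higher), where 19% of all genes had. In whole tissue, fewer cells of a type and less RNA per cell cannot be told apart.

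The calls treat the 10 arrays as independent, although each mouse lies on 2 of them. With 1 value per mouse, limma called 0 of the 86 genes (lowest FDR 0.123), 51 had an unadjusted p under 0.05 (8.2% of all genes had), and 0.084% of all genes were called. These values are means of single channels with no array term, so the pairing of WT and TG on an array was also lost. For Uqcr10, WT4 and TG2, which share array 3 as labelled, were at -2.762 and -2.025 against the mean of the mice. The study reports that Agilent intensities gave no called genes unless dye and array were modelled. The 0 is therefore not a test of the number of mice alone.

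The ratio was not spread evenly over the arrays. The median over the 86 genes was 0.04 on array 1, 0.68 on array 2, 0.65 on array 3, 0.10 on array 4 and -0.11 on array 5, where WT was in Cy3. It was 0.72 on array 6, 0.13 on array 7, 0.75 on array 8, 0.82 on array 9 and 0.04 on array 10, where WT was in Cy5. Both dye orientations thus held arrays with a median over 0.6 and arrays with a median near 0. The share of the 86 genes with a log2 ratio over 0.5 was 57 to 61.6% on arrays 2, 3, 6, 8 and 9, and 0 to 5.81% on the other arrays. Among all other genes that share was 0.151 to 4.7%. The sign was the same on all 10 arrays for 4 of the 86 genes (Sdhb, Uqcr11, Atp5g1 and Atp5j2), and for 2.28% of all genes.

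**Figure D1:**
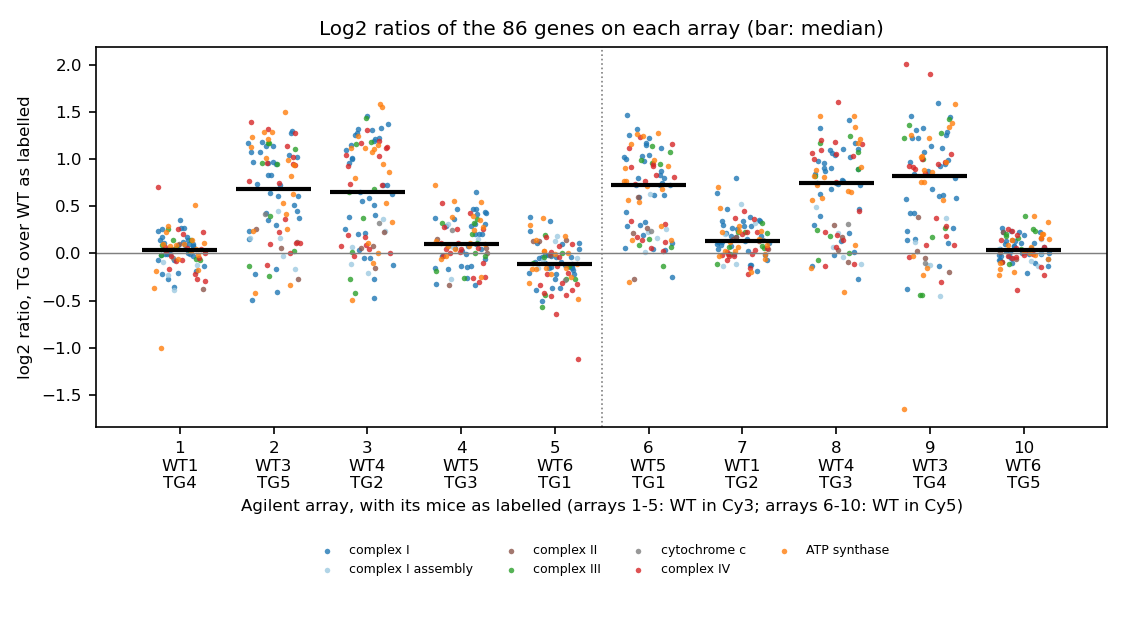
Log2 ratio of TG over WT, as labelled, for each of the 86 genes (points, colored by complex) on each of the 10 Agilent arrays, with the median as a bar. The medians of arrays 2, 3, 6, 8 and 9 lie between 0.65 and 0.82, and those of the other arrays between -0.11 and 0.13.

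The 7 sets of genes differed in how many members were called. In complex I, 21 of 33 subunits were called (median log2 ratio 0.43), and of its 5 assembly factors 1 (median 0.06). In complex II 1 of 4 (median 0.11), in complex III 4 of 9 (median 0.44), and in complex IV 6 of 17 (median 0.46) were called. Of ATP synthase 10 of 17 were called (median 0.47), and Cycs, cytochrome c itself, was not (0.13 ± 0.06, FDR 0.316). Every call was in the higher direction as labelled, and no set was tested against another.

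**Figure D2:**
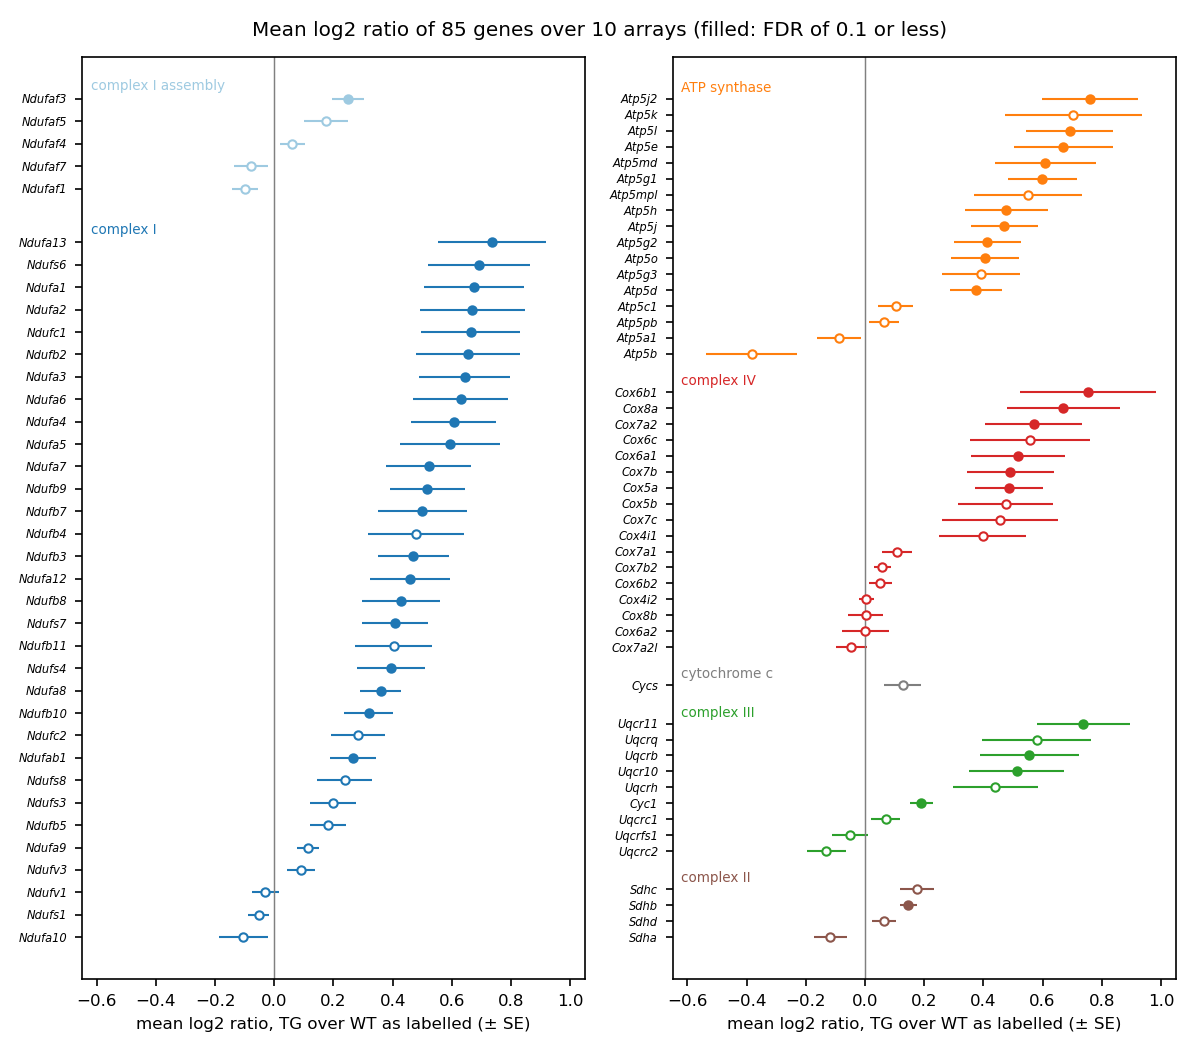
Mean log2 ratio of TG over WT, as labelled, of 85 of the 86 genes over 10 arrays with its SE (bars), ordered within its complex, with filled points for genes at an FDR of 0.1 or less. The filled points lie between 0.15 and 0.76, and the open points reach down to -0.38 (Atp5b).

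Complex I oxidizes NADH and is the largest of the complexes. Of its 27 accessory subunits 20 were called (median 0.48), and of the 6 measured core subunits, which bind the flavin and the iron-sulfur clusters, 1 was (median 0.08). These groups by role were drawn up after values had been seen, and their difference was not tested. Ndufa8 had the smallest p value of the complex (0.36 ± 0.07, SE, n = 10 arrays; FDR 0.0251). It read 0.35, 0.45, 0.39, 0.44 and -0.01 on arrays 1 to 5, and 0.34, 0.34, 0.68, 0.69 and -0.07 on arrays 6 to 10. It was thus higher on 8 of 10 arrays and near 0 on both arrays that carry WT6. Ndufa4, since assigned by some to complex IV, read 0.08, 0.95, 1.32, 0.66 and -0.10 on arrays 1 to 5, and 1.17, 0.30, 0.91, 0.84 and -0.05 on arrays 6 to 10. Its mean was 0.61 ± 0.14 (FDR 0.0455). The largest mean in the complex was that of Ndufa13, an accessory subunit also known as GRIM-19 (0.73 ± 0.18, FDR 0.0501), which was above 1.2 on arrays 2, 3, 6, 8 and 9 and between -0.17 and 0.35 on the others. Among the further accessory subunits called, Ndufa3 was at 0.64, Ndufb9 at 0.52, Ndufs6 at 0.69, Ndufa1 at 0.68, Ndufc1 at 0.66 and Ndufa6 at 0.63.

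The core subunit called was Ndufs7, which carries an iron-sulfur cluster near the quinone site (0.41 ± 0.11, FDR 0.0641). Ndufs8 was at 0.24 (FDR 0.186) and Ndufs3 at 0.20 (FDR 0.189). Ndufs1, the largest subunit, was at -0.05 (FDR 0.499) and Ndufv1, which binds the flavin, at -0.03 (FDR 0.825). None of these 4 passed the test. Of the assembly factors Ndufaf3 was called (0.25 ± 0.05, FDR 0.034), with values of -0.07 to 0.49 and 9 of 10 arrays above 0. Ndufaf5 was at 0.17 (FDR 0.223), and Ndufaf1, Ndufaf4 and Ndufaf7 lay between -0.10 and 0.06.

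Probes of one gene did not always give the same value. Of the 19 genes with several probes, 4 had probes of unlike sign and 4 had probes of which only some passed, and 51 of the 111 probes were called (7.41% of all probes were). The widest gap was in Ndufv3, a small subunit next to the flavin site. Its probe at chr17:29330679-29330738 was called (0.62 ± 0.16, FDR 0.0543), while those at chr17:29336800-29336859 and chr17:29337257-29337316 were at -0.21 and -0.14 (FDR 0.246 and 0.126). Ndufab1, the mitochondrial acyl carrier protein, had 1 probe at chr7:115969476-115969535 with 0.46 (called) and another at chr7:115966012-115966071 with 0.07 (not called). These positions are those of the files, which name no genome build.

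Complex II is also the succinate dehydrogenase of the citric acid cycle. Sdhb, its iron-sulfur subunit, had the smallest p value of all 86 genes with a small mean (0.15 ± 0.03, FDR 0.024). It read 0.05, 0.12, 0.23, 0.06 and 0.13 on arrays 1 to 5 and 0.27, 0.18, 0.18, 0.03 and 0.23 on arrays 6 to 10. It was above 0 on every array and did not follow the arrays where most of the genes were high, with r = 0.14 over the 10 arrays against the median of the other 85 genes. The membrane anchor Sdhc was at 0.18 (FDR 0.107) and Sdhd at 0.06 (FDR 0.464), and the flavoprotein Sdha was at -0.12 (FDR 0.282).

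In complex III, the small subunits were all high in the same arrays. Uqcr11 read 0.26, 1.17, 1.44, 0.36 and 0.00 on arrays 1 to 5 and 1.14, 0.32, 1.17, 1.36 and 0.16 on arrays 6 to 10. Its mean was 0.74 ± 0.16 (fold 1.67, FDR 0.0325). Uqcrb (0.56, FDR 0.088) and Uqcr10 (0.51, FDR 0.0977) were called too, and Uqcrq (0.58, FDR 0.101) and Uqcrh (0.44, FDR 0.11) lay just outside the threshold. Cyc1, the heme subunit cytochrome c1, was called with a smaller mean (0.19 ± 0.04, FDR 0.0286). It read 0.03, 0.40, 0.38, 0.21 and 0.19 on arrays 1 to 5, and between -0.00 and 0.18 on arrays 6 to 10. The large core proteins Uqcrc1 (0.07, FDR 0.531) and Uqcrc2 (-0.13, FDR 0.325) and the Rieske iron-sulfur protein Uqcrfs1 (-0.05, FDR 0.761) did not pass.

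Complex IV holds subunits that exist as isoforms for different tissues, which the named pairs compare. Of the 10 isoforms common to most tissues 6 were called (median 0.50), while none of the 6 isoforms known from heart, muscle, lung or testis was called by limma or had an unadjusted p under 0.05 (median 0.03, lowest p 0.0599). The probes of those 6 were dim, with mean log2 signals of 6.10 to 8.30, against 10.3 to 13.0 for the common isoforms, and no background was subtracted. Among them Cox6a2 (r = 0.92) and Cox8b (r = 0.84) followed the median of the other members over the arrays. Cox5a, which has 1 isoform only, had the smallest p value (0.49 ± 0.11, FDR 0.0451). Cox6a1 read 0.52 ± 0.16 (FDR 0.0939) and its muscle counterpart Cox6a2 0.0015 ± 0.08. Cox7a2 read 0.57 (FDR 0.0766), Cox7a1 0.11 (FDR 0.289) and Cox7a2l, a factor that joins complexes III and IV, -0.05 (FDR 0.746). Cox8a read 0.67 (FDR 0.0743) and Cox8b 0.0030, Cox6b1 0.75 (FDR 0.0909) and Cox6b2 0.05, and Cox7b 0.49 (FDR 0.0883) and Cox7b2 0.06. Cox4i1 was at 0.40 and was not called (FDR 0.158), and Cox4i2 was at 0.0048. Signals of different probes were not compared, so no level of one isoform is set against another. The widest range over the arrays was that of Cox6b1, from -0.64 on array 5 to 1.90 on array 9.

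ATP synthase held the largest mean of the 86 genes. Atp5j2, a small subunit of the membrane part, read 0.51, 1.29, 1.59, 0.56 and 0.03 on arrays 1 to 5 and 1.24, 0.03, 0.82, 1.34 and 0.21 on arrays 6 to 10. Its mean was 0.76 ± 0.16 (fold 1.70, FDR 0.0328), and it was above 0 on all 10 arrays. Atp5l, whose promoter is printed above, was at 0.69 ± 0.15 (FDR 0.0326), and Atp5md, known to stabilize the dimer, at 0.61 (FDR 0.0727). Atp5k (0.70, FDR 0.113) and Atp5mpl (0.55, FDR 0.115) missed the threshold. The ring of c subunits is encoded by 3 genes for 1 mature protein. Atp5g1 had the smallest p value of the complex, with values of 0.22, 0.98, 1.14, 0.35 and 0.14 on arrays 1 to 5 and of 0.92, 0.24, 0.81, 1.03 and 0.15 on arrays 6 to 10 (mean 0.60 ± 0.12, FDR 0.0243). Atp5g2 was called at 0.41 (FDR 0.0675), and Atp5g3 was at 0.39 (FDR 0.125).

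In the peripheral stalk Atp5j, Atp5o and Atp5h were called (0.47, 0.41 and 0.48), and Atp5pb was not (0.06, FDR 0.592). In the catalytic head, F1, the small subunits Atp5e (0.67, FDR 0.0508) and Atp5d (0.38, FDR 0.0454) were called, and the large ones were not. Atp5c1 was at 0.10, Atp5a1 at -0.09 and Atp5b at -0.38 ± 0.15 (FDR 0.196). Atp5b, which carries the catalytic sites, was named after its values had been seen. It read -1.0, -0.34, -0.11, -0.03 and 0.18 on arrays 1 to 5 and -0.31, -0.20, -0.41, -1.65 and 0.03 on arrays 6 to 10. Arrays 1 and 9, the lowest, both carry TG4 as labelled, and both carry WT5 after the exchange of the arrays. Its 3 probes were all below 0, at -0.64, -0.33 and -0.18.

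**Figure D3:**
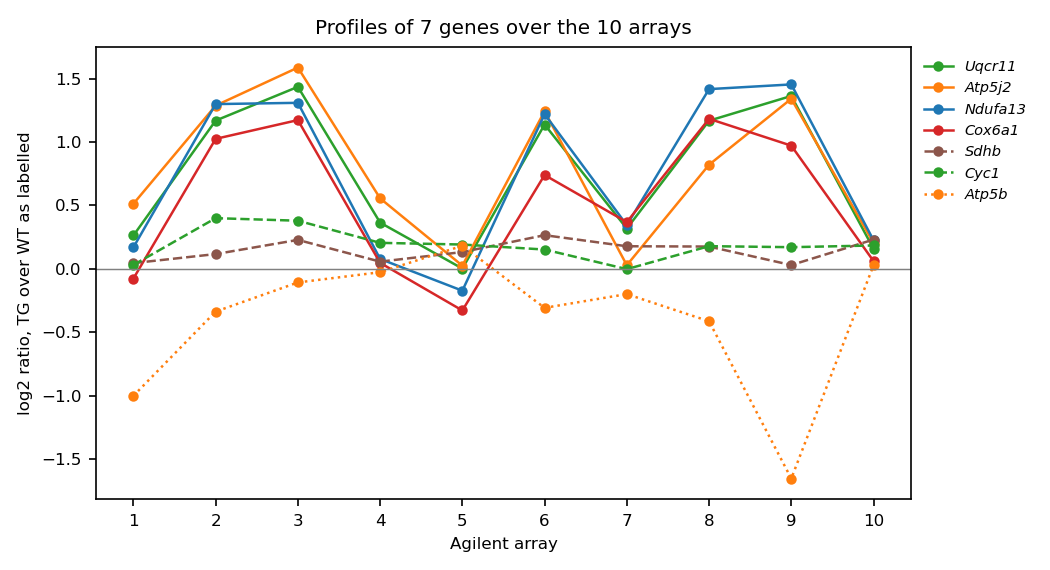
Log2 ratio of TG over WT, as labelled, of 7 genes on arrays 1 to 10, one line a gene. Uqcr11, Atp5j2, Ndufa13 and Cox6a1 lie above 0.8 on arrays 2, 3, 8 and 9, Sdhb lies between 0.03 and 0.27 throughout, and Atp5b is lowest at -1.65 on array 9.

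Many of the genes shared a profile over the arrays. Against the median of the other members, r was over 0.9 for 38 of the 86 genes, and 28 of these were called, while 12 genes had r below 0. The arrays share mice, so these correlations describe the arrays and carry no p value. The lowest r were those of the large subunits Uqcrc2 (-0.60) and Atp5a1 (-0.54). The highest r included those of the small subunits Ndufa13 (0.99), Atp5md (0.99) and Uqcrh (0.98). As a description of gene size, Spearman's rho between the log2 ratio and the genomic span of the gene in the reference table was -0.338 over the 86 genes and -0.298 over 6857 other named genes over the signal limit of 7.5.

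Per mouse, the signal of each gene was averaged over its channels on 2 arrays and set against the mean of the 10 mice. As labelled, the median over the 86 genes was 0.06 in WT1, -0.37 in WT3, -0.50 in WT4, -0.18 in WT5 and 0.12 in WT6. In the TG mice it was 0.12, 0.18, 0.18, 0.19 and 0.18 for TG1 to TG5. The TG mice lay within a narrow range (0.17 ± 0.03, SD, n = 5), and the WT mice were spread (-0.18 ± 0.27, SD, n = 5), with WT6 just below the lowest TG mouse, so that the medians of the groups did not overlap. For 12 of the 86 genes (2.1% of all genes) the 5 WT and 5 TG values did not overlap. After an exchange of the arrays, the low mice were TG2 (-0.40), TG3 (-0.54) and TG4 (-0.18), and TG1 (0.07) and TG5 (0.14) lay near or in the WT range of 0.09 to 0.28. Under both readings 3 mice of one genotype had low medians, and 2 mice of that genotype lay near or in the range of the other. After the exchange 6 genes did not overlap (1.56% of all genes), and 0 of the 86 were called with 1 value per mouse (limma; lowest FDR 0.209, 51 with an unadjusted p under 0.05 where 7.42% of all genes had, and 0.0318% of all genes called).

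**Figure D4:**
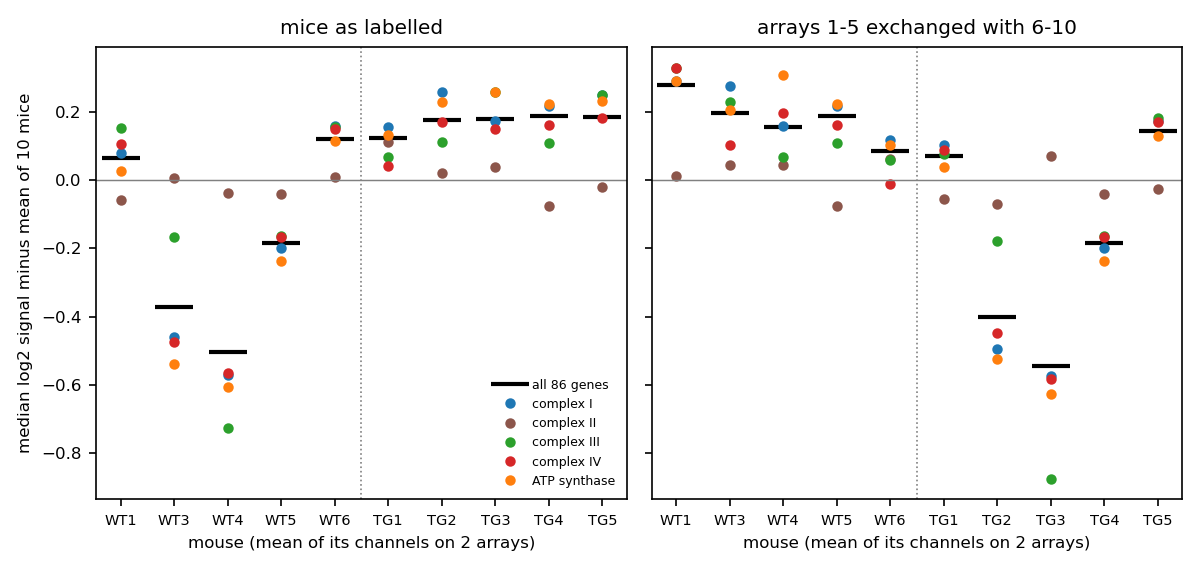
Median log2 signal of each complex (points) and of all 86 genes (bars) in each of the 10 mice, minus the mean of the mice, with the mice as labelled (left) and with arrays 1 to 5 exchanged with 6 to 10 (right). As labelled WT3 and WT4 are lowest (-0.37 and -0.50), and after the exchange TG2 and TG3 (-0.40 and -0.54).

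The count of genes depended on most of the mice, and leaving out any of 6 of them brought it to 9 or fewer. Without WT4 as labelled limma called 0 of the 86 genes, where 48 still had an unadjusted p under 0.05. Without WT3 it called 1 (Sdhb), without WT5 3, without TG2 or TG3 7 each, and without TG5 9. Without WT1 it called 38, without TG1 33, without TG4 22, and without WT6 57. With a single array left out, the count was 8 to 15 without arrays 2, 3, 6, 8 or 9, and 39 to 57 without one of the others. After the exchange the count was 0 without WT1, WT4 or TG2 (45, 48 and 44 with an unadjusted p under 0.05), 1 without TG3, 3 without TG4, 22 without WT5, and 44 to 59 without one of the others. The median log2 ratio moved less, from 0.32 to 0.52 over all mice left out and from 0.35 to 0.48 over all arrays left out. Of the mitochondrial and glycolysis lists described below, 28 genes were called with all 10 arrays. As labelled, 1 was called without WT3, 1 without WT4, 6 without WT5, 10 without TG2, 5 without TG3 and 3 without TG5. The share of all genes called in these fits is not given here, so the drop is not shown to be particular to the 86 genes.

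**Figure D5:**
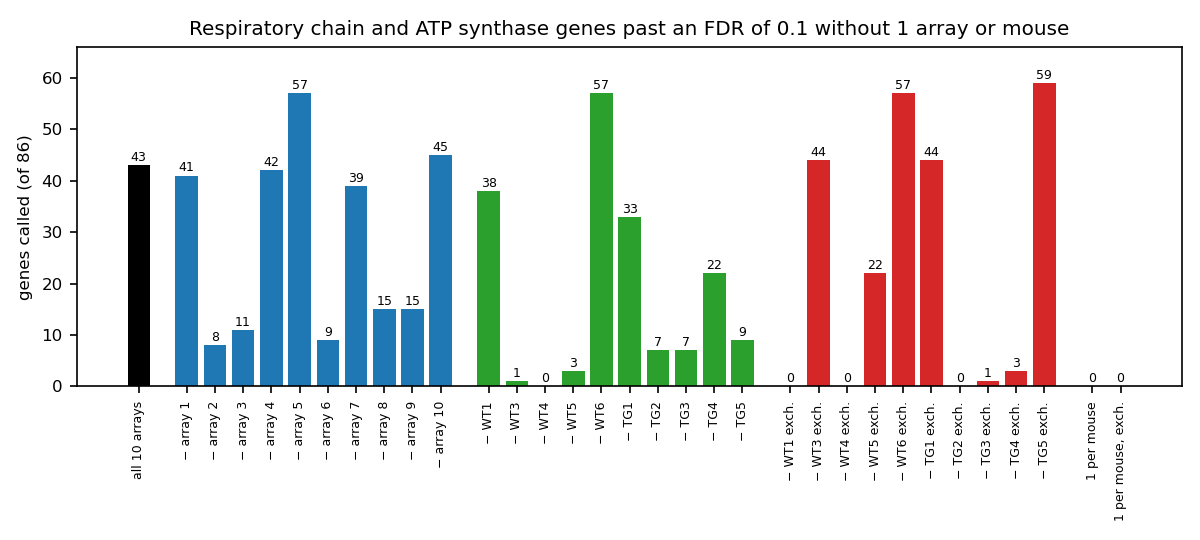
Number of the 86 genes past an FDR of 0.1 (limma) when 1 array or 1 mouse, as labelled or after the exchange, is left out. The count is 43 with all 10 arrays and ranges from 0 (without WT4) to 59 (without TG5 after the exchange).

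Genes that act beside the respiratory chain were described from lists drawn up with earlier results of these data known. Of 15 measured assembly factors of complex IV 5 were called, all higher (median of the list 0.11): Cox20 (0.42), Cox14 (0.47), the copper chaperone Cox17 (0.58), Coa3 (0.34) and Cox19 (0.17). Of 10 assembly factors of complexes II, III and V, Uqcc2 (0.67) and Sdhaf4 (0.32) were higher and Ttc19 (-0.15) was lower (median -0.03). Atpif1, which inhibits ATP synthase when it runs backward, was higher at 0.64 ± 0.16 (FDR 0.0513). It is on the list of 20 carriers and import genes, of which Timm17a and Phb2 were also higher, Tomm70a and Slc25a12 were lower, and the median was -0.0027. Of 8 mitochondrial antioxidant enzymes 4 were higher (median 0.20): Prdx5 (0.51 ± 0.10, FDR 0.027), Gpx4 (0.40), Glrx2 (0.33) and Sod2 (0.28).

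Among the enzymes upstream of the chain more genes were called lower than higher. Of 23 genes of the citric acid cycle and pyruvate dehydrogenase 5 were called lower and 1 higher (median -0.07). Dld, the shared E3 subunit of the 2-oxoacid dehydrogenases, fell by 0.38 on the log2 scale (SE 0.08, FDR 0.0338) and was below 0 on all 10 arrays. Its lowest values were on arrays 1 (-0.74) and 9 (-0.91), as were those of Suclg2 (-0.45 and -0.53). The succinyl-CoA ligase subunits Suclg2 (-0.19) and Sucla2 (-0.16), Dlat (-0.17) and Idh2 (-0.10) were also lower, and Idh3g was higher (0.13). Among 16 genes of glycolysis Gapdh was higher (0.20) and Pfkp lower (-0.16), with a median of 0.01. Eno1 was at -0.97 without passing (FDR 0.3997), with -4.96 on array 1, -4.57 on array 9 and -0.53 to 0.31 on the others. Of 17 regulators of mitochondrial biogenesis Esrra, an orphan nuclear receptor, was higher (0.24 ± 0.07, FDR 0.0637), as was Ssbp1 (0.15), and Tfb2m was lower (-0.21). The factors whose motifs are named above did not pass: Nrf1 was at -0.04 (FDR 0.619), Gabpa at -0.05 (FDR 0.455) and Yy1 at -0.05 (FDR 0.573), and neither did Ppargc1a (0.20, FDR 0.471) or Tfam (-0.09, FDR 0.233).

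Markers of other cells moved as follows. Of 7 oligodendrocyte markers Mbp was lower (-0.51, FDR 0.0842), with its lowest values on arrays 1 (-1.42) and 9 (-1.53), the arrays where Atp5b was lowest. Of 8 neuron markers (median 0.16) Tubb3 was higher (0.39), and Snap25 was at -0.40 without passing (FDR 0.183). Of 6 astrocyte markers (median 0.11) Aldh1l1 (0.23) and Aqp4 (0.30) were higher, while Gjb6 (-0.21, FDR 0.119) and Gfap (-0.15, FDR 0.128) lay below 0 without passing. Among the other lists Tmem119 (0.13) of 8 microglia markers was higher and Itgam (-0.15) lower, Cldn5 (-0.25) of 6 endothelial markers was lower, and the 6 choroid plexus markers had a median of -0.04 with none past the FDR of limma (lowest unadjusted p 0.191). Of 3 measured blood markers Alas2 was lower (-0.13, FDR 0.0954). The median of the blood markers over the arrays was -0.71, 0.34, -0.14, -0.32 and -0.74 on arrays 1 to 5 and 0.39, -0.12, 0.30, -0.03 and -0.78 on arrays 6 to 10. Its highest values were on arrays 2, 6 and 8, where the 86 genes were high, and its lowest on arrays 1, 5 and 10, where they were not. On arrays 3 (-0.14) and 9 (-0.03), where the 86 genes were also high, it was below 0. The means of the 3 blood markers over the arrays ran from -0.21 to -0.13. In the mice as labelled the blood median was 0.37 in WT1 and 0.44 in WT6 and between -0.17 and -0.04 in the other 8. The choroid plexus median was highest on arrays 2 (0.26) and 8 (0.35) and between -0.26 and 0.04 on the others, and Ttr, which encodes transthyretin, read 1.14 and 1.11 on those arrays. Over the 10 arrays, r with the median of the 86 genes was 0.38 to 0.70 for the 6 choroid plexus markers and 0.83 and 0.76 for the globin genes Hba-a1 and Hbb-bt. It was 0.93 for Aif1 and 0.82 for C1qb of the 8 microglia markers and 0.86 for Slc1a3 of the 6 astrocyte markers. These single genes do not stand for their lists. The astrocyte median was 0.02 to 0.21 on arrays 2, 3, 6, 8 and 9 and -0.03 to 0.09 on the others. The microglia median was -0.007 to 0.15 on those arrays and -0.18 to 0.05 on the others. Values of r for Alas2, the other microglia and astrocyte markers, and the neuron and oligodendrocyte markers are not given here. The part of these markers in the result was not tested.

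Genes outside the respiratory chain shared the profile. Of 81 of the genes with a signal over the limit, 39 (48.1%) had r over 0.9 with the median of the 86, and so had 410 of 10641 other genes (3.85%), of which 285 were called. The named genes most like that median, by r over the 10 arrays, were Cck, the neuropeptide cholecystokinin (r = 0.997, log2 0.59, FDR 0.0573), Sod1 (0.989), Ddt (0.986), Cstb (0.984) and Nop10 (0.983), and Rpl13a, Rps26, Rps29 and Rps16 of the ribosome were among the nearest 20. The ribosomal families were therefore counted, after these values had been seen. Of 78 genes with a symbol of a cytoplasmic ribosomal protein 33 were called, all higher (median 0.41), and of 73 mitochondrial ribosomal protein genes 37 were higher and 1, Mrpl50, lower (median 0.19). The second principal component of all genes over the signal limit held 20.6% of the variance and had an absolute r of 0.918 with the median of the 86 genes. Computed without the 86 genes, it held 19.4% and had an absolute r of 0.924.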

How the data were processed

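Hippocampal RNA of 5 WT and 5 TG mice was measured on 10 two-color Agilent arrays. Per the file headers, the authors extracted spot intensities with Agilent Feature Extraction 8.5.1.1 and deposited the mean and median intensity in each channel, local background and flags. The deposited log10 ratios, background-corrected and dye-normalized by that software, served as an alternative. The members, gene lists and tests were chosen with earlier results of these data known.

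Analyses were run in R 4.3.3 (limma 3.58.1, statmod 1.5.0, and version 1.17.8 of data.table). Mean intensities, not corrected for background, were loess-normalized array by array with control spots at weight 0. Log2 ratios were turned to TG over WT by the dyes of the labels. Spots of a probe and probes of a gene were averaged. An intercept was fitted per gene with empirical Bayes, p values were adjusted by Benjamini and Hochberg over 34537 genes, and an FDR of 0.1 was the limit. Arrays were treated as independent. No probe was filtered out. 1 gene is counted but its own values are not reported here. Of 41174 probes, 22214 were named by accession, 1611 by description, and 17349 not. For 1 value per mouse, channels were made comparable by quantile normalization of the mean intensity, and no array term was fitted. The labels gave the genotype and dye of each channel. The named genes are the called genes with the smallest p values (at most 30), the leading 2 of each set, the isoform groups and the called genes of each list (at most 5). Roles, Atp5b, Ndufv3, Ndufab1, the neighbours by r, the ribosomal families and gene span were chosen after values were seen. Scripts were tested on simulated data. ABI was not used, since no probe could be matched to these genes, nor Illumina, whose columns could not be paired with mice. Samples of LGTC and AFF are not analysed here. The alternatives covered background correction, normalization, spot and probe summaries, outlier spots, blocks, 1 value per mouse, robust regression, a stricter FDR (0.05) and the omission of single arrays or mice.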

Additional observations from a re-analysis of the deposited data

Results flagged for a closer look

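Within a dye orientation, 108 groups of 5 arrays were examined for a single distant value, and chance alone gives about 1 such group in 20. There were 2. Ndufa8 on array 5 was at -0.0126, while the nearest of arrays 1 to 4 was at 0.35. Cyc1 on array 7 was at -0.0017, while the nearest of the other arrays 6 to 10 was at 0.15.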

How the results depend on the processing

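Of the 86 genes, 43 were called. The count was 56 with median centring in place of loess within arrays, and 45 with scaling between arrays. It was 38 to 48 under another background correction, median pixels, outlier spots left out, present probes, the brightest probe or a dye term. With the WT or the TG mouse as a random block it was 57 each as labelled, and 48 and 55 after the exchange. The within-mouse correlations of these block fits were negative, at -0.252 (WT) and -0.162 (TG) as labelled and -0.066 and -0.195 after the exchange. A negative correlation narrows the SE, so these counts are not a stricter test. The count was 28 with the log ratio of the scanner software, 18 with robust regression (17 higher, and Uqcrc2 lower) and 14 at an FDR of 0.05. With 1 value per mouse, which drops the pairing on the arrays, limma called 0, also after the exchange. In both limma fits 51 had an unadjusted p under 0.05. It also called 0 with the mouse number as a replicate block (53) or in the same mice without the block (55). The numbers did not pair the mice (r of -0.23 to -0.15 between same-numbered mice). The count without 1 array or mouse ranged from 0 to 59, and a member was called lower in some of these fits (Uqcrc2, Ndufaf1, Ndufa10 and Sdha among them). The share of all genes called under each of these alternatives is not given here.

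Of the 109 genes of the lists beside the members (mitochondrial lists and glycolysis) 28 were called (26 of 93 without glycolysis, where 8.15% of all genes were), 13 with median centring, 16 with the scanner software's ratio, 0 with 1 value per mouse, with or without the replicate block, and 0 to 30 without 1 array or mouse. The median of complex II moved to 0.22 with median centring, and the other medians kept their sign and size within the spread. Values near 0 changed sign: with median centring Cox4i2 to -0.0479, Cox7a2l to 0.0856, Cox7b2 to -0.000419 and Cox8b to -0.0064; with scaling Cox6a2 to -0.0088 and Cox8b to -0.0065; with the brightest probe Pfkp to 0.0077; in the paired fit and the same mice without the block Cox4i2 to -0.0179. Without 1 array or mouse Cox4i2 ranged from -0.0127 to 0.0265, Cox6a2 from -0.0757 to 0.0768, Cox7a2l from -0.11 to 0.0164 and Cox8b from -0.0588 to 0.0592. The cause was not tested. Slide or scan date could not be used as a block. Tests on ABI were not run.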
